A study of Rattus norvegicus with 12 samples.

Results

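Livers of rats that received the herbal medicine Qushi Huayu Decoction (QHD) on top of a high-fat diet (HFD) were set against livers of rats on a normal diet, to describe which mRNA levels differed from normal liver after the decoction. The comparison used 5 of the 12 arrays of the study, 3 from QHD livers (animals 45, 46 and 47) and 2 from normal diet livers (animals 2 and 4). It covered every probe set that carried 1 gene symbol, and the array labelled normal diet 3 was left out for the reason given below. All rats were of the Sprague-Dawley strain. QHD rats ate the HFD for 4 weeks and then received 0.1 ml/kg QHD by gavage each day for 4 more weeks while the HFD went on. HFD rats (animals 24, 36 and 87) ate the HFD without treatment, and their total time on it is not stated. GC rats (animals 35, 37 and 55) ate the HFD for 4 weeks before gavage. They then received a mixture of geniposide and chlorogenic acid on the HFD, at a dose the labels do not give. Normal diet rats ate standard chow. The titles give 4 weeks for every group, and the sources used here do not give the sex and age of the rats, the make-up of the HFD or the hour of tissue collection. QHD livers differed from normal livers in both diet and treatment, so these cannot be told apart within this comparison. The HFD values are therefore given beside the QHD values. QHD and HFD rats may also have differed in time on the HFD, and its part in QHD minus HFD values was not tested. Each array was treated as 1 animal.

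In a fatty liver, hepatocytes hold droplets of triglyceride, and the liver makes less of its own cholesterol when the diet brings enough of it, because the sterol sensors Insig1 and Insig2 hold the SREBP transcription factors back. Immune cells of the liver, among them the Kupffer cells, present antigens on MHC class II molecules and call in other leukocytes with chemokines. Hepatocytes also detoxify foreign compounds with enzymes that attach glutathione, many of them under the transcription factor NRF2, and much of their metabolism follows the circadian clock.

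Each array measured 31099 probe sets, with 76 to 220 of them at 0 and a median log2 signal of 6.62 to 6.87 on 11 arrays and 7.19 on normal diet 3. On normal diet 3 the median over 14 hepatocyte markers was 6.23 and that over 11 fat cell markers 14.28. The same medians were 14.71 to 14.97 and 8.58 to 9.68 in QHD livers, and 15.0045 to 15.18 and 8.48 to 8.50 in the normal diet livers 2 and 4. All further values come from the 11 arrays without normal diet 3, in which 9459 genes had a mean log2 signal above 6.66, the median of all probe sets, and were tested. No hepatocyte marker passed the test between QHD and normal diet. Their summed linear signal was 364670 to 415810 in QHD livers, 393350 to 494790 in HFD livers and 428440 to 483680 in normal diet livers. In whole tissue, fewer cells of a type and less RNA per cell cannot be told apart.

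After QHD, 706 of the 9459 genes (7.46%) differed from normal diet liver at a limma adjusted p under 0.05. Of these 451 (4.77%) were higher and 255 (2.7%) lower, and genes past this threshold are said below to have risen or fallen. The median difference was 1.05 on the log2 scale over the genes that rose, -0.77 over those that fell and 0.05 over all genes tested. Changes above 2-fold were found for 242 of the genes that rose and 82 of those that fell. The QHD and normal diet arrays did not overlap for 4125 genes (43.6%), and all 706 were among them. Of the genes that rose, 70 had a normal diet mean under the level that a gene needed to be tested, and 10 of those that fell had a QHD mean under it, so that the size of these changes is less certain. By the same fit, which shares arrays with this comparison, 53 genes (0.56%) differed between QHD and HFD livers and 50 (0.529%) between HFD and normal diet livers. The count of 706 fell to 4 when normal diet 3 was included, namely Lcn2, Npas2, Marchf1 and Tmem86a. It was 134 without normal diet 2, 136 without normal diet 4, 393, 247 and 243 without QHD 45, 46 and 47, 457 without GC 37, and 542 to 1050 without any 1 of the others. The authors' deposited comparison of normal diet with QHD used the arrays of both groups, normal diet 3 included. By its unnamed test 1300 of 31099 probe sets had p under 0.05, where 1555 fall under it by chance. After Benjamini-Hochberg adjustment 0 stayed under it.

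**Figure D1:**
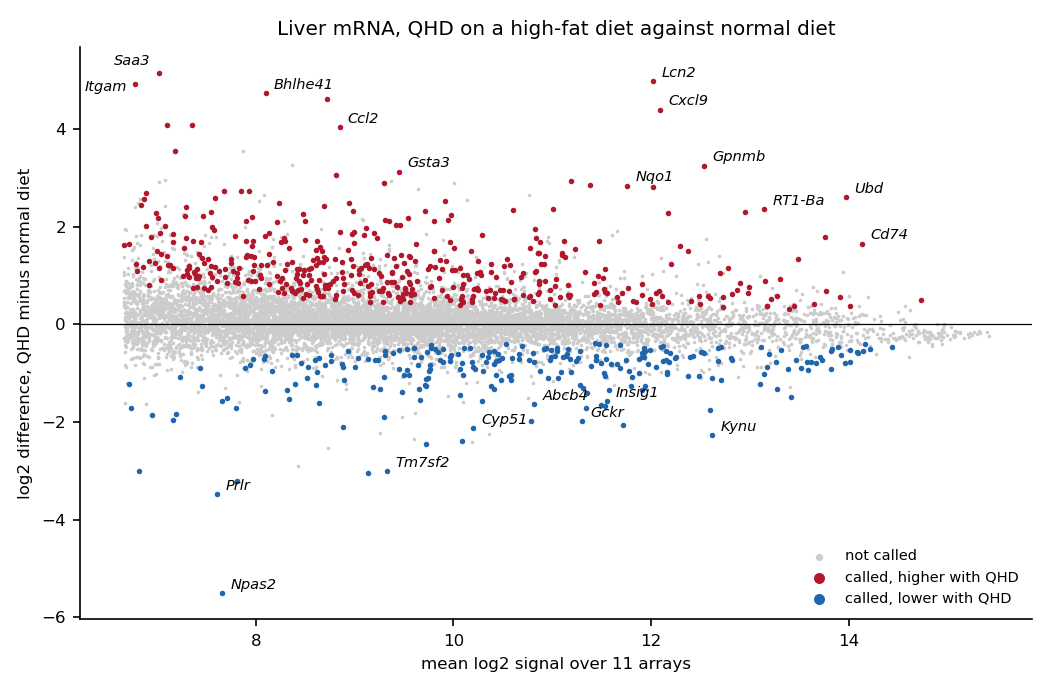
Log2 difference between QHD and normal diet liver (vertical axis) against mean log2 signal over 11 arrays (horizontal axis), with 1 point per tested gene. Red points are the 451 genes that rose, blue points the 255 that fell and grey points the rest. Saa3 and Lcn2 lie highest at 5.15 and 4.99, and Npas2 lies lowest at -5.50.

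Enzymes of cholesterol synthesis were far below normal liver after QHD. In the list of cholesterol synthesis and uptake 9 of 17 tested genes fell and 0 rose, where 2.7% of all genes tested fell. All 17 had a negative difference, with a median of -0.78 against 0.05 over all genes. Tm7sf2, a reductase of the late sterol pathway, had log2 signals of 8.64, 8.56 and 8.85 in QHD livers, 8.96, 8.30 and 8.82 in HFD livers and 11.60 and 11.77 in normal diet livers. All QHD and HFD arrays lay in one range, well under both normal arrays. Tm7sf2 was 8.02-fold lower after QHD (-3.004 ± 0.24, adjusted p 0.00037, where ± gives the moderated SE here and below). Cyp51, which demethylates lanosterol, stood at 9.79, 9.56 and 9.80 after QHD, 9.92, 10.11 and 9.55 on the HFD and 11.63 and 12.05 on the normal diet, a 4.36-fold fall (-2.13 ± 0.20, adjusted p 0.000771). Idi1, an isomerase near the start of the isoprenoid pathway, stood at 9.10, 9.01 and 9.31, against 8.59, 9.20 and 8.32 on the HFD and 10.72 and 11.35 on the normal diet (-1.90 ± 0.24, adjusted p 0.00274). The sterol isomerase Ebp differed by -1.05, and its 3 QHD arrays lay close together at 11.29, 11.32 and 11.29. No QHD array of these enzymes reached either normal array. The other 5 enzymes that fell were Msmo1 (-1.33, adjusted p 0.00387), Dhcr7 (-1.06, 0.0353), the squalene synthase Fdft1 (-0.88, 0.0364), Sc5d (-0.79, 0.00828) and the lanosterol synthase Lss (-0.72, 0.0431). Between QHD and HFD livers Tm7sf2 differed by -0.01 (95% interval -0.47 to 0.45, adjusted p 0.992) and Cyp51 by -0.15 (95% interval -0.54 to 0.25, adjusted p 0.778). Msmo1 was the 1 list member called in that comparison, at 9.57, 9.87 and 9.89 in QHD livers, 9.14, 9.01 and 8.60 in HFD livers and 10.93 and 11.28 in normal livers. Its QHD level lay between both other groups, 0.86 (95% interval 0.50 to 1.22, adjusted p 0.0468) above HFD. The summed linear signal of the 18 list members on the array was 20116 to 20968 after QHD, 18157 to 22093 on the HFD and 36927 to 43341 on the normal diet. The list count of 9 was 5 without normal diet 2, 6 without normal diet 4 or any QHD array, and 0 with normal diet 3 included. Tm7sf2, Cyp51, Idi1 and Ebp were called without any 1 of the 11 arrays.

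The sterol sensors and part of fatty acid synthesis were also lower. Insig1 and Insig2, which keep SREBP in the endoplasmic reticulum, were the 2 genes that fell among 7 of sterol sensing. Insig1 had 11.61, 11.55 and 11.92 in QHD livers, 12.34, 11.48 and 12.00 in HFD livers and 12.95 and 13.56 in normal livers (-1.56 ± 0.24, adjusted p 0.00745). Insig2 had 12.73, 13.00 and 12.71 after QHD, 13.63, 13.62 and 14.05 on the HFD and 14.43 and 14.15 on the normal diet (-1.48 ± 0.29, adjusted p 0.0211). For both genes every QHD array was below both normal arrays, and for Insig2 the HFD arrays lay closer to the normal ones. Srebf1, which drives fatty acid synthesis, had 11.18, 11.17 and 11.51 after QHD and 9.55 and 9.69 on the normal diet but did not pass the test (1.67 ± 0.46, adjusted p 0.0563), and Srebf2, which drives cholesterol synthesis, differed by -0.29 (adjusted p 0.413). Of 20 genes of fatty acid and triglyceride synthesis 4 fell and 1 rose (2.7% and 4.77% of all genes tested), with a list median of -0.37. Acss2, which makes acetyl-CoA from acetate, had 9.82, 9.76 and 10.06 after QHD, 9.78, 10.11 and 9.71 on the HFD and 10.78 and 11.05 on the normal diet (-1.04 ± 0.15, adjusted p 0.00421). The desaturase Fads2 (-1.10 ± 0.22, adjusted p 0.0204), the elongase Elovl5 (-0.77 ± 0.16, adjusted p 0.023) and the acyltransferase Agpat2 (-0.77 ± 0.15, adjusted p 0.0181) fell as well, and Lpin2, a phosphatidate phosphatase, rose (1.05 ± 0.28, adjusted p 0.0481). The desaturase Scd, by contrast, had 9.98, 8.91 and 10.59 after QHD, 12.03, 13.36 and 11.85 on the HFD and 11.37 and 10.67 on the normal diet. Its QHD arrays lay under all HFD arrays and both normal arrays, and neither comparison was called (QHD minus normal -1.19 ± 0.64, adjusted p 0.279; QHD minus HFD -2.59 (95% interval -3.86 to -1.31, adjusted p 0.0887)). Fasn, the fatty acid synthase, differed by -0.13 (adjusted p 0.912). The count of falls in fatty acid synthesis was 1 without QHD 46 or either normal array, and Lpin2 was not called without any 1 QHD, GC or normal array or HFD 87. Acss2 was called without any 1 of the 11 arrays. The call of Insig1 ended without normal diet 4 (adjusted p 0.06). The call of Insig2 ended without normal diet 2 or normal diet 4 (adjusted p 0.0706 to 0.115). The call of Fads2 ended without QHD 46, normal diet 2 or normal diet 4 (adjusted p 0.06 to 0.105). The call of Elovl5 ended without QHD 45, QHD 46, normal diet 2 or normal diet 4 (adjusted p 0.0548 to 0.113). The call of Agpat2 ended without QHD 46, QHD 47, normal diet 2 or normal diet 4 (adjusted p 0.0516 to 0.0965).

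**Figure D2:**
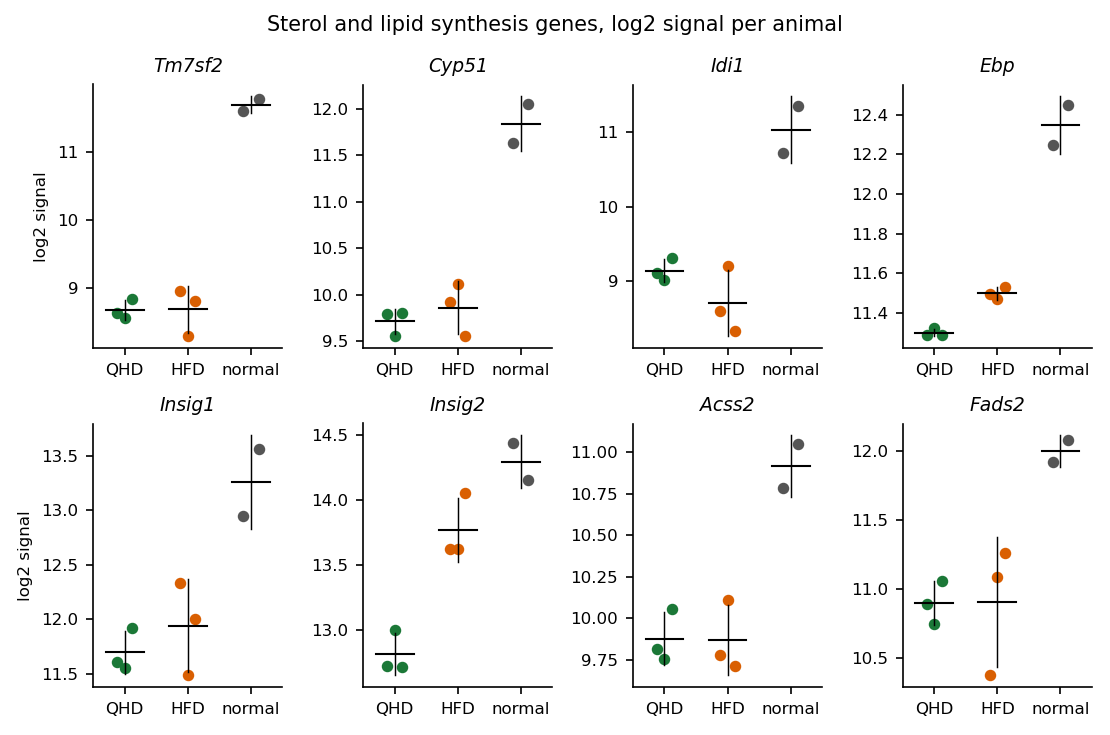
Log2 signal (vertical axis) of 8 genes of sterol and lipid synthesis in QHD, HFD and normal diet livers. Points are animals, horizontal bars group means and vertical lines 1 SD. The 3 QHD points lie below both normal diet points in every panel, and for Tm7sf2, Cyp51 and Acss2 the QHD and HFD points share a range.

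Some genes that burn fatty acids, carry lipoproteins and move bile acids were lower. In the list of fatty acid oxidation, which also holds targets of PPAR alpha, 4 of 30 genes fell and 0 rose, with a median of -0.36. Over all genes tested 2.7% fell and 4.77% rose, which applies to each list here. These were Cyp4a3, a fatty acid hydroxylase (-0.89 ± 0.18, adjusted p 0.0198), the carnitine acetyltransferase Crat (-1.24 ± 0.29, adjusted p 0.0332), the dehydrogenase Hadh (-0.67 ± 0.16, adjusted p 0.0362) and Pdk4, a kinase that spares glucose (-1.67 ± 0.44, adjusted p 0.0489). Cpt1a, the gate to mitochondrial oxidation, differed by -0.03 (adjusted p 0.957). This list's count was 0 without QHD 47 or normal diet 4, 1 without QHD 45 or 46, 2 without GC 37 or normal diet 2, and 9 without HFD 36. Of 20 lipoprotein genes 3 fell and 1 rose. The hepatic lipase Lipc had 12.82, 13.12 and 12.92 in QHD livers, 13.63, 13.42 and 13.57 in HFD livers and 13.83 and 13.88 in normal livers, with QHD arrays below all HFD and normal arrays (-0.90 ± 0.12, adjusted p 0.00268; QHD minus HFD -0.59 (95% interval -0.82 to -0.36, adjusted p 0.0313)). Apoa5, which regulates plasma triglyceride (-0.79 ± 0.13, adjusted p 0.00775), and Apom, a carrier of sphingosine phosphate (-0.72 ± 0.17, adjusted p 0.0316), also fell. Abcg1, which exports cholesterol from macrophages, rose (1.96 ± 0.31, adjusted p 0.00828). Of 19 genes of bile acid synthesis and transport 4 fell and 1 rose. Abcb4, which exports phospholipid into bile, had 10.43, 10.27 and 10.25 in QHD livers, 10.98, 10.43 and 11.23 in HFD livers and 11.86 and 12.04 in normal livers, a 3.1-fold fall (-1.63 ± 0.21, adjusted p 0.00268). All QHD arrays of Abcb4 were below both normal arrays, and HFD 36 stood level with the highest of them. The bile salt export pump Abcb11 (-1.02 ± 0.18, adjusted p 0.0101), the uptake carrier Slc10a1 (-0.54 ± 0.12, adjusted p 0.0277) and the racemase Amacr (-0.56 ± 0.11, adjusted p 0.0177) fell, and Abcc3, which exports bile acids back to blood, rose (1.27 ± 0.30, adjusted p 0.0332). Cyp7a1, the rate-limiting enzyme of bile acid synthesis, had 12.78, 12.79 and 13.63 after QHD and 12.57 and 10.06 on the normal diet, where the 2 arrays lay far apart, and did not pass the test (1.75 ± 0.68, adjusted p 0.139). The bile acid falls numbered 1 without normal diet 2, 2 without normal diet 4 and 8 without HFD 36, and the lipoprotein falls 1 without normal diet 2 and 5 without HFD 36. Lipc and Abcb4 were called without any 1 of the 11 arrays. The calls of Apoa5 and Abcb11 ended without normal diet 2 (adjusted p 0.0554 to 0.0871). The calls of Abcg1 and Amacr ended without normal diet 2 or normal diet 4 (adjusted p 0.0521 to 0.107). The call of Cyp4a3 ended without QHD 47, normal diet 2 or normal diet 4 (adjusted p 0.062 to 0.101). The call of Apom ended without QHD 45, QHD 47, normal diet 2 or normal diet 4 (adjusted p 0.0626 to 0.162). The call of Slc10a1 ended without QHD 46, QHD 47, normal diet 2 or normal diet 4 (adjusted p 0.0611 to 0.182). The call of Crat ended without QHD 45, QHD 46, QHD 47, normal diet 2 or normal diet 4 (adjusted p 0.0701 to 0.161). The call of Hadh ended without QHD 45, QHD 46, QHD 47, GC 37, normal diet 2 or normal diet 4 (adjusted p 0.0545 to 0.152). The call of Pdk4 ended without QHD 45, QHD 46, QHD 47, GC 37, GC 55, HFD 24, HFD 36, HFD 87 or normal diet 4 (adjusted p 0.0555 to 0.264). The difference of Pdk4 was -1.01 without normal diet 4 and -2.33 without normal diet 2. Other probe sets differed by -0.94 for Pdk4 and by 1.13 and 0.34 for Abcg1.

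Of 21 genes of lipid droplets and fatty acid uptake 1 rose and 1 fell, where 4.77% of all genes tested rose and 2.7% fell. The list median was -0.20. Fabp5, a fatty acid binding protein also made by macrophages, had 11.27, 12.16 and 13.08 in QHD livers, 10.42, 12.18 and 10.63 in HFD livers and 9.66 and 8.79 in normal livers (2.95 ± 0.66, adjusted p 0.03). Hsd17b13, an enzyme on the droplet surface, had 11.33, 11.55 and 10.99 after QHD, 12.21, 11.44 and 12.32 on the HFD and 12.46 and 12.65 on the normal diet (-1.27 ± 0.28, adjusted p 0.0271). For both genes the QHD and normal arrays did not overlap, while HFD 36 lay inside the QHD range. Plin2, the main droplet coat of hepatocytes, had 12.50, 12.54 and 12.90 in QHD livers, 13.21, 13.47 and 13.73 in HFD livers and 13.25 and 13.77 in normal livers. Every QHD array of Plin2 was under every HFD and normal array, and the difference missed the threshold (-0.86 ± 0.25, adjusted p 0.0586). A second probe set of Plin2 pointed the other way, at 1.00 (adjusted p 0.151 over probe sets), so the direction depends on the probe set. The scavenger receptor Cd36 differed by -0.32 (adjusted p 0.545). Fabp4, the 1 called gene of 8 fat cell markers tested, had 6.68, 8.58 and 9.82 after QHD, 8.02, 7.49 and 8.10 on the HFD and 6.05 and 5.19 on the normal diet. Its QHD arrays spread widely and HFD arrays lay among them (2.74 ± 0.72, adjusted p 0.0476). The summed signal of the fat cell list was 49014 to 58660 in QHD livers and 56056 to 67437 in normal livers. The call of Fabp5 ended without QHD 46, QHD 47, normal diet 2 or normal diet 4 (adjusted p 0.0603 to 0.151). The call of Hsd17b13 ended without QHD 45, QHD 47, normal diet 2 or normal diet 4 (adjusted p 0.057 to 0.127). The call of Fabp4 ended without QHD 46, QHD 47, GC 35, GC 37, GC 55, HFD 24, HFD 36, HFD 87, normal diet 2 or normal diet 4 (adjusted p 0.0538 to 0.208). The difference of Fabp4 was 2.01 without QHD 47 and 3.58 without QHD 45.

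MHC class II genes were well above normal liver after QHD. Of 11 tested genes 9 rose and 0 fell, where 4.77% of all genes tested rose, and the median was 1.71. Of the 11, 10 did not overlap between the groups (26.5% of all genes tested did not overlap with QHD higher). Cd74, the invariant chain that escorts class II molecules, had 14.18, 14.38 and 14.32 in QHD livers, 14.15, 14.48 and 14.55 in HFD livers and 12.31 and 12.96 in normal livers. QHD and HFD arrays shared a range above both normal arrays, a 3.15-fold rise after QHD (1.66 ± 0.17, adjusted p 0.00144; QHD minus HFD -0.10 (95% interval -0.44 to 0.24, adjusted p 0.838)). The class II chain gene RT1-Ba had 13.20, 13.62 and 13.83 after QHD, 12.78, 13.54 and 13.64 on the HFD and 10.84 and 11.52 on the normal diet (2.37 ± 0.28, adjusted p 0.00268). RT1-Db1 (2.27 ± 0.27, adjusted p 0.00234) and RT1-Da (1.78 ± 0.30, adjusted p 0.0101), chains of the other class II molecule, rose. Second probe sets of RT1-Ba and RT1-Db1 differed by 0.56 and 4.72 and were not called (adjusted p 0.92 and 0.0895 over probe sets). Marchf1, a ubiquitin ligase that removes class II molecules from the cell surface, rose as well, at 9.40, 9.65 and 9.65 after QHD, 8.92, 9.78 and 9.54 on the HFD and 7.54 and 7.83 on the normal diet (1.88 ± 0.25, adjusted p 0.00355). The master regulator Ciita (1.97, adjusted p 0.0428), the peptide loaders RT1-DMa (1.69, 0.0183) and RT1-DMb (1.71, 0.0133) and the lysosomal reductase Ifi30 (0.84, 0.00775) completed the 9. The count was 4 without normal diet 2 and 7 to 10 without any other array. Cd74, RT1-Ba, RT1-Db1 and Marchf1 were called without any 1 of the 11 arrays. In MHC class I and peptide loading 1 of 13 genes rose, RT1-M3-1 (1.51 ± 0.33, adjusted p 0.0246), with a list median of 0.58. The call of RT1-M3-1 ended without QHD 45, QHD 46, QHD 47, normal diet 2 or normal diet 4 (adjusted p 0.0553 to 0.159).

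Chemokine and macrophage genes held several of the largest rises. Of 24 tested genes of inflammatory cytokines, chemokines and adhesion 8 rose and 0 fell, with a median of 1.40, where 4.77% of all genes tested rose. Cxcl9, which attracts T cells, had 13.20, 13.71 and 13.80 in QHD livers, 10.95, 13.59 and 11.19 in HFD livers and 8.87 and 9.46 in normal livers (4.40 ± 0.70, adjusted p 0.00867, 21.2-fold). Ccl2, which attracts monocytes, had 10.36, 10.002 and 9.96 after QHD, 7.31, 10.54 and 7.96 on the HFD and 5.90 and 6.21 on the normal diet (4.05 ± 0.90, adjusted p 0.0299). For both genes HFD 36 stood with the QHD arrays and the other HFD arrays stood lower, all above the normal arrays. The adhesion molecules Vcam1 (1.34 ± 0.19, adjusted p 0.00464) and Icam1 (1.77, adjusted p 0.0394) rose. So did the chemokines Ccl3 (2.26 ± 0.42, adjusted p 0.0167), Cxcl16 (1.56 ± 0.33, adjusted p 0.0246) and Ccl6 (0.57, adjusted p 0.0471) and the NF-kB inhibitor Tnfaip3 (2.34, adjusted p 0.0272). Tnf had 7.84, 7.40 and 6.05 after QHD and 5.41 and 5.12 on the normal diet and was not called (1.83 ± 0.86, adjusted p 0.215). Of 18 macrophage and Kupffer cell markers 7 rose and 0 fell, with a median of 0.83. Gpnmb, a membrane protein of lipid-loaded macrophages, had 12.54, 13.75 and 14.12 in QHD livers, 12.11, 13.18 and 12.25 in HFD livers and 9.74 and 10.68 in normal livers (3.26 ± 0.49, adjusted p 0.00745). The galectin Lgals3 had 12.45, 12.98 and 13.57 after QHD, 11.13, 12.70 and 11.72 on the HFD and 10.10 and 10.28 on the normal diet (2.81 ± 0.43, adjusted p 0.00795). In both, QHD 46 and 47 were highest and HFD 36 exceeded QHD 45, with the normal arrays lowest. The integrin chain Itgam, CD11b, had 7.07, 8.39 and 8.09 after QHD and 2.52 and 3.35 on the normal diet (4.92 ± 0.97, adjusted p 0.0212). The lysosomal marker Cd68 (0.99 ± 0.20, adjusted p 0.0211), Itgax (2.74, adjusted p 0.0246), Tyrobp (1.47, adjusted p 0.024) and the lysozyme Lyz2 (1.35, adjusted p 0.0476) also rose. The chemokine list's count was 1 without normal diet 2, 2 without normal diet 4, 3 without QHD 46, 5 without QHD 45 and 12 without HFD 36. That of the macrophage list was 0, 2, 2 and 3 without normal diet 2, normal diet 4, QHD 46 and QHD 47, and 11 without HFD 24. Vcam1 was called without any 1 of the 11 arrays. The calls of Cxcl9, Gpnmb and Lgals3 ended without normal diet 2 (adjusted p 0.0532 to 0.0591). The call of Ccl3 ended without normal diet 2 or normal diet 4 (adjusted p 0.0611 to 0.101). The calls of Cxcl16 and Itgam ended without QHD 46, normal diet 2 or normal diet 4 (adjusted p 0.0501 to 0.114). The call of Cd68 ended without QHD 46, QHD 47, normal diet 2 or normal diet 4 (adjusted p 0.0561 to 0.114). The call of Ccl2 ended without QHD 45, QHD 46, QHD 47, normal diet 2 or normal diet 4 (adjusted p 0.0582 to 0.131).

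Summed markers of macrophages, of T and NK cells and of B and plasma cells were higher in QHD than in normal livers. Calls outside the macrophage list stand beside the 4.77% of all genes tested that rose. Neutrophil markers overlapped between the groups. The summed signal of 7 of them was 684 to 1064 in QHD livers, 364 to 1186 in HFD livers and 627 to 1109 in normal livers. Of 2 tested neutrophil markers 0 were called. The summed signal of 19 macrophage markers was 72486 to 94091 in QHD livers, 54044 to 96991 in HFD livers and 45442 to 53333 in normal livers. That of 19 T and NK cell markers was 6085 to 7445 after QHD, 3863 to 8719 on the HFD and 2951 to 4140 on the normal diet, with 0 of 13 tested markers called and a median of 0.70. That of 9 B and plasma cell markers was 2594 to 3217 after QHD, 2615 to 5335 on the HFD and 1593 to 2200 on the normal diet. The 1 called gene of 5 tested was Fcrla, a B cell protein (1.56 ± 0.33, adjusted p 0.0238). No macrophage, T and NK cell or B and plasma cell marker stood at 0 on any of the 11 arrays. The part of these cells in the rise of class II, chemokine and cell cycle genes was not tested. Among the largest rises of all, Lcn2, a siderophore-binding lipocalin, had 12.71, 13.82 and 14.32 in QHD livers, 11.39, 13.45 and 11.93 in HFD livers and 8.35 and 8.91 in normal livers (4.99 ± 0.67, adjusted p 0.00442, 31.7-fold). Saa3, an inducible serum amyloid, had 8.30, 8.51 and 8.28 after QHD, 5.74, 9.59 and 5.54 on the HFD and 3.26 and 3.17 on the normal diet (5.15 ± 0.98, adjusted p 0.0193). Lcn2 was bright and separated all QHD from all normal arrays by more than 3 log2 units, whereas Saa3 was dim in normal livers. Adding 32 to the linear signals brought the difference to 3.13 for Saa3, 2.73 for Itgam, 2.51 for the transcription factor Batf2, 2.20 for the phosphatase Dusp2 and 2.69 for the spindle protein Prc1, against 5.15, 4.92, 4.09, 3.56 and 4.09 without it. All 5 were called either way. The inhibitory receptor Lilrb4 (4.62 ± 0.84, adjusted p 0.016, 3.95 with 32 added) and the beta-glucan receptor Clec7a (3.06 ± 0.61, adjusted p 0.0215) were also among the 15 largest rises. Lcn2 and Prc1 were called without any 1 of the 11 arrays. The calls of Saa3, Lilrb4 and Clec7a ended without normal diet 2 or normal diet 4 (adjusted p 0.0645 to 0.104). The call of Batf2 ended without QHD 45, QHD 46 or normal diet 2 (adjusted p 0.0561 to 0.127). The call of Fcrla ended without QHD 45, QHD 46, normal diet 2 or normal diet 4 (adjusted p 0.0512 to 0.114). The call of Dusp2 ended without QHD 45, QHD 46, QHD 47, GC 55, HFD 24, HFD 87 or normal diet 2 (adjusted p 0.053 to 0.23). The normal arrays lay far apart, at 2.78 and 6.03 for Dusp2 and 2.4997 and 5.37 for Batf2. Without normal diet 2 the differences were 1.94 for Dusp2 and 2.66 for Batf2. Without normal diet 4 they were 5.19 and 5.53, and without QHD 47 that of Batf2 was 4.72.

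**Figure D3:**
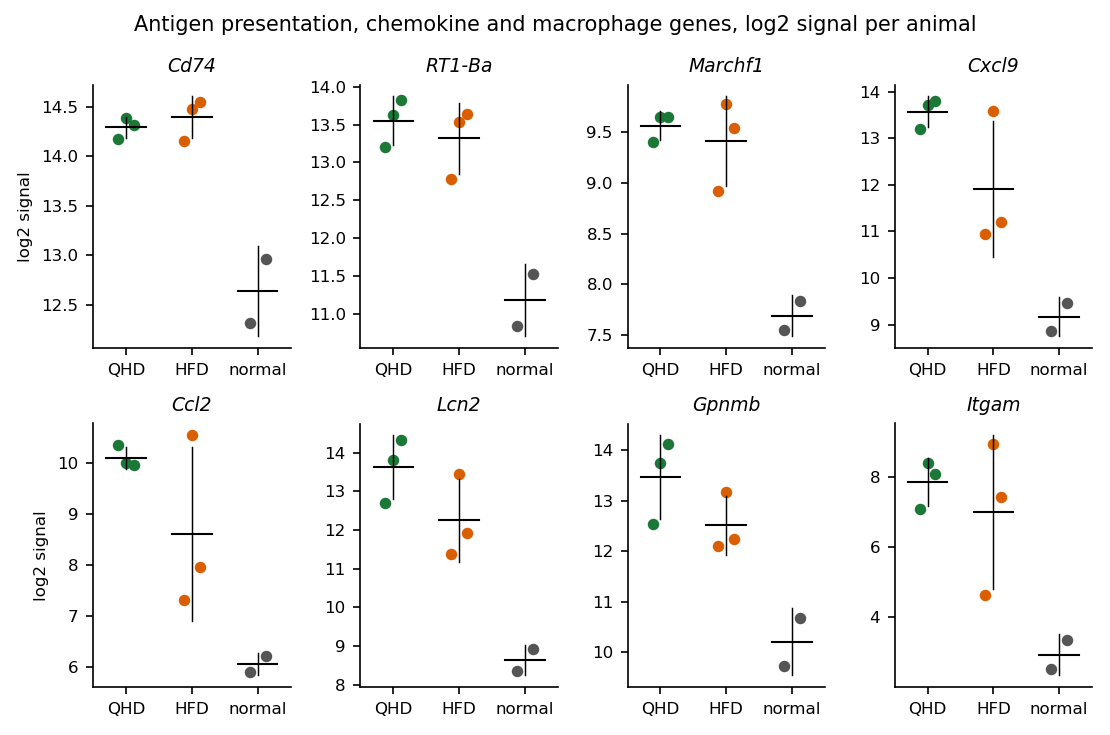
Log2 signal (vertical axis) of 8 antigen presentation, chemokine and macrophage genes in QHD, HFD and normal diet livers. Points are animals, horizontal bars group means and vertical lines 1 SD. All QHD points lie above both normal diet points, and the HFD points of Cxcl9, Ccl2, Lcn2, Gpnmb and Itgam spread widely with animal 36 at the top.

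Interferon responsive genes did not follow the class II genes as a list. Of 23 tested genes 2 rose and 0 fell (4.77% and 2.7% of all genes tested), while the list median was negative at -0.46. Ubd, a ubiquitin-like protein, had 14.61, 14.67 and 14.35 in QHD livers, 13.69, 14.86 and 13.90 in HFD livers and 11.93 and 11.93 in normal livers (2.62 ± 0.28, adjusted p 0.00206). The GTPase Gbp2 had 12.22, 12.35 and 10.40 after QHD, 10.75, 12.89 and 11.58 on the HFD and 8.64 and 8.96 on the normal diet (2.86 ± 0.67, adjusted p 0.035), with QHD 47 lower than the other QHD arrays. Of 29 genes of the cell cycle and mitosis 7 rose and 0 fell, with a median of 1.14. Prc1 had 7.74, 8.35 and 8.33 after QHD, 6.37, 7.81 and 7.82 on the HFD and 3.78 and 4.32 on the normal diet (4.09 ± 0.45, adjusted p 0.00162). The cyclin-dependent kinase Cdk1 (2.70 ± 0.61, adjusted p 0.0285), the survival factor Birc5 (2.57 ± 0.60, adjusted p 0.0332) and the topoisomerase Top2a (2.02 ± 0.48, adjusted p 0.0317) rose. The others were the proliferation marker Mki67 (2.40, adjusted p 0.0347), the cyclin Ccnb2 (1.35, adjusted p 0.0477) and Cdc20 (1.17, adjusted p 0.0497). All 7 had log2 signals of 6.70 or less in normal livers. The count was 0 among genes with a mean log2 signal above 8. That limit left dim genes out before any test, Prc1, Cdk1, Birc5 and Top2a among them. With the usual limit the count was 1 without QHD 46, QHD 47 or normal diet 2, 2 without normal diet 4, and 12 and 13 without HFD 36 and HFD 24. Ubd and Prc1 were called without any 1 of the 11 arrays. The calls of Cdk1 and Top2a ended without QHD 46, QHD 47, normal diet 2 or normal diet 4 (adjusted p 0.0659 to 0.161). The call of Birc5 ended without QHD 45, QHD 46, QHD 47 or normal diet 2 (adjusted p 0.0568 to 0.182). The call of Gbp2 ended without QHD 45, QHD 46, HFD 87, normal diet 2 or normal diet 4 (adjusted p 0.0509 to 0.147). Birc5 had 3.99 and 6.33 in normal livers, and its difference was 1.40 without normal diet 2 and 3.73 without normal diet 4. That of Gbp2 was 3.48 without QHD 47. Adding 32 to the linear signals brought Birc5 to 1.74 and Cdk1 to 1.95, both still called.

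Some glutathione and NRF2 genes rose after QHD, and several of these stood above both HFD and normal liver. Of 26 tested NRF2 targets and glutathione synthesis genes 6 rose and 0 fell, with a median of 0.35 and 7 negative differences. Of 17 glutathione transferases 5 rose and 0 fell, with a median of 0.11 and 7 negative differences. Over all genes tested 4.77% rose. Gsta3, an alpha class transferase, had 12.19, 10.61 and 12.00 in QHD livers, 7.70, 8.03 and 7.83 in HFD livers and 8.98 and 7.95 in normal livers. Each QHD array was above every HFD and normal array, with QHD 46 the lowest of the 3, a rise of 8.77-fold over normal (3.13 ± 0.45, adjusted p 0.00625) and of 3.75 (95% interval 2.85 to 4.64, adjusted p 0.00347) over HFD. Gstp1, the pi class transferase, had 11.72, 12.06 and 12.69 after QHD, 10.72, 10.78 and 10.82 on the HFD and 10.46 and 10.42 on the normal diet, again with no overlap (1.72 ± 0.22, adjusted p 0.00255; QHD minus HFD 1.39 (95% interval 0.96 to 1.81, adjusted p 0.0108)). Mgst2, a microsomal transferase (0.76 ± 0.14, adjusted p 0.0124), Gstt1 (0.71 ± 0.18, adjusted p 0.0366) and Gsta4 (0.58 ± 0.15, adjusted p 0.0387) rose by less. Nqo1, a quinone reductase, had 13.23, 12.30 and 12.86 after QHD, 11.12, 12.88 and 11.94 on the HFD and 10.03 and 9.87 on the normal diet (2.85 ± 0.60, adjusted p 0.0246). Its HFD arrays stood above the normal ones too, and HFD 36 was inside the QHD range. The aldehyde reductase Akr7a3 had 14.57, 13.68 and 14.32 after QHD, 11.64, 12.12 and 11.11 on the HFD and 12.83 and 10.96 on the normal diet, where the 2 arrays differed by almost 2 log2 units (2.30 ± 0.49, adjusted p 0.027; QHD minus HFD 2.56 (95% interval 1.58 to 3.55, adjusted p 0.0371)). Gclc, the catalytic chain of glutathione synthesis (0.47 ± 0.11, adjusted p 0.0348), the pentose pathway enzymes Taldo1 (0.75 ± 0.17, adjusted p 0.0251) and Pgd (1.01, adjusted p 0.0418) and the superoxide dismutase Sod2 (0.86, adjusted p 0.0356) made up the 6. A second probe set of Gclc differed by 0.33 and was not called (adjusted p 0.329 over probe sets). Hmox1 (0.31, adjusted p 0.614) and Gsta1 (0.11, adjusted p 0.567) did not pass the test. Probe sets of related transferases can share sequence, so single members of this family are less certain. The NRF2 count was 0 without QHD 47 or normal diet 4, 1 without QHD 45, 2 without QHD 46 and 4 without GC 37 or normal diet 2, and the transferase count was 2 without normal diet 2 or 4 and 3 without QHD 45 or 47. Gsta3 and Gstp1 were called without any 1 of the 11 arrays. The call of Mgst2 ended without normal diet 2 or normal diet 4 (adjusted p 0.0573 to 0.0827). The call of Akr7a3 ended without QHD 45, QHD 47 or normal diet 4 (adjusted p 0.0618 to 0.117). The call of Taldo1 ended without QHD 46, QHD 47 or normal diet 4 (adjusted p 0.0535 to 0.166). The calls of Gstt1 and Nqo1 ended without QHD 45, QHD 47, normal diet 2 or normal diet 4 (adjusted p 0.0532 to 0.211). The call of Gclc ended without QHD 45, QHD 46, QHD 47, normal diet 2 or normal diet 4 (adjusted p 0.0621 to 0.16). The difference of Akr7a3 was 1.36 without normal diet 4 and 3.23 without normal diet 2.

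The antioxidant element, the motif that NRF2 binds with small Maf proteins, was searched as TGACNNNGC on both strands in the RefSeq promoters of the rat build GRCr8 (250 bases before to 50 after the start). It was present in 12.2% of all 27457 promoters. Of 43 tested genes of both lists 37 matched a promoter and 11 of these held it, and among 11 that rose 9 matched and 3 held it. The stretches of those 3 are shown because these are the called genes of both lists that hold the motif, with the motif in capitals on the strand of the gene. Gsta3 lies at chr9:31154942-31154988 (plus strand, motif from -17 relative to the start), Gstp1 at chr1:210769728-210769796 (minus strand, from -61) and Sod2 at chr1:50050169-50050233 (minus strand, from -35, with the motif reading on the opposite strand).
Gsta3: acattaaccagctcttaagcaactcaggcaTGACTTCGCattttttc
Gstp1: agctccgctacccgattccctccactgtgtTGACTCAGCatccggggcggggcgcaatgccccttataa
Sod2: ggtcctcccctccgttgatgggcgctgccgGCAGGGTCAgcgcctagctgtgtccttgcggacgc
A match describes these letters only. The sterol element TCACNCCAC, which SREBP binds, was in 1.15% of all promoters and in 0 of the 10 matched promoters of the 11 cholesterol and sterol sensing genes that fell.

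Clock genes held the single largest fall. Npas2, which pairs with Bmal1 to drive the clock, had 3.26, 4.24 and 5.13 in QHD livers, 7.95, 10.27 and 9.68 in HFD livers and 9.84 and 9.58 in normal livers. No QHD array came within 2 log2 units of any other array shown, and the fall was 45.3-fold against normal (-5.50 ± 0.73, adjusted p 0.00421) and -5.10 (95% interval -6.55 to -3.64, adjusted p 0.0108) against HFD. The QHD signals were dim, and adding 32 to the linear signals brought the difference from normal to -4.06, still called. Per2, a repressor of the loop, had 10.66, 10.74 and 10.75 after QHD, 9.64, 7.29 and 8.08 on the HFD and 8.75 and 8.43 on the normal diet, with QHD highest throughout (2.12 ± 0.55, adjusted p 0.0468). Rora, an activating nuclear receptor of the loop, had 8.39, 7.84 and 8.11 after QHD, 8.29, 8.27 and 8.08 on the HFD and 9.09 and 9.05 on the normal diet, with QHD and HFD arrays both under the normal ones (-0.96 ± 0.19, adjusted p 0.0192). These were the 3 called of 12 tested clock loop genes, 1 up and 2 down, against 4.77% up and 2.7% down over all genes tested. Bhlhe41, an E-box repressor, was the 1 called of 6 clock output factors, at 8.55, 9.08 and 10.28 after QHD, 7.72, 9.39 and 6.58 on the HFD and 4.19 and 4.94 on the normal diet (4.74 ± 0.80, adjusted p 0.0104). Its normal arrays were dim, and the same addition brought the difference to 3.57. Npas2 was called without any 1 of the 11 arrays. The call of Bhlhe41 ended without normal diet 2 (adjusted p 0.0706). The call of Rora ended without QHD 46, QHD 47, normal diet 2 or normal diet 4 (adjusted p 0.0516 to 0.0987). The call of Per2 ended without QHD 45, QHD 46, QHD 47, GC 35, GC 37, GC 55, HFD 87, normal diet 2 or normal diet 4 (adjusted p 0.0539 to 0.18). The loop's count of rises was 0 without any 1 QHD, GC or normal array or HFD 87.

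Promoter stretches are shown for the called clock genes that hold a clock motif. The E-box CACGTG was in 6.63% of all promoters and in 4 of 15 matched clock genes, Bhlhe41 among them. The D-box TTANGTAA was in 2.17% of all promoters and in 1 of the 15, Per2. The ROR element was in 0.222% of all promoters and in 1 of the 15, which was not called. Bhlhe41 is shown at chr4:180569368-180569433 (minus strand, motif from -48) and Per2 at chr9:99497148-99497215 (minus strand, motif from -192).
Bhlhe41: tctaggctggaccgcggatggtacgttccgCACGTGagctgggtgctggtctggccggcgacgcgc
Per2: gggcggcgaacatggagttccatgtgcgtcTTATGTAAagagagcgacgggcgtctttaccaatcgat

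Gckr and Kynu, from glucose and tryptophan metabolism, were lower in QHD livers than in both normal and HFD livers. Gckr, which holds glucokinase in the nucleus, had 10.12, 9.88 and 10.16 in QHD livers, 12.07, 11.84 and 12.08 in HFD livers and 12.19 and 11.86 in normal livers. The HFD and normal arrays shared a range and every QHD array was more than 1 log2 unit under it, a 3.94-fold fall (-1.98 ± 0.16, adjusted p 0.00037; QHD minus HFD -1.94 (95% interval -2.26 to -1.63, adjusted p 0.000273)). Of 17 genes of glucose metabolism and insulin signalling 2 fell and 1 rose, where 2.7% of all genes tested fell and 4.77% rose. The other fall was the insulin receptor Insr (-0.68 ± 0.16, adjusted p 0.0306). The rise was Pfkfb1, which sets fructose bisphosphate levels (1.43 ± 0.26, adjusted p 0.012). The gluconeogenic Pck1 differed by -0.23 (adjusted p 0.274). Kynu, which cleaves kynurenine, had 11.13, 11.19 and 11.45 after QHD, 13.32, 13.16 and 13.62 on the HFD and 13.28 and 13.77 on the normal diet, with the same layout as Gckr (-2.27 ± 0.26, adjusted p 0.00215; QHD minus HFD -2.11 (95% interval -2.62 to -1.59, adjusted p 0.00347)). Among 10 genes of tryptophan breakdown, Afmid, which makes kynurenine, rose (1.21 ± 0.31, adjusted p 0.0445; QHD minus HFD 1.81 (95% interval 1.19 to 2.43, adjusted p 0.0193)), as did the transaminase Kyat1 (0.53 ± 0.14, adjusted p 0.0437). Gckr and Kynu were called without any 1 of the 11 arrays. The call of Pfkfb1 ended without normal diet 2 or normal diet 4 (adjusted p 0.0554 to 0.0838). The call of Insr ended without QHD 45, QHD 46, QHD 47, normal diet 2 or normal diet 4 (adjusted p 0.0529 to 0.132). The call of Afmid ended without QHD 45, QHD 47, GC 35, GC 37, GC 55, normal diet 2 or normal diet 4 (adjusted p 0.0532 to 0.247). The call of Kyat1 ended without QHD 45, QHD 46, QHD 47, GC 37, GC 55, HFD 87, normal diet 2 or normal diet 4 (adjusted p 0.0528 to 0.261).

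**Figure D4:**
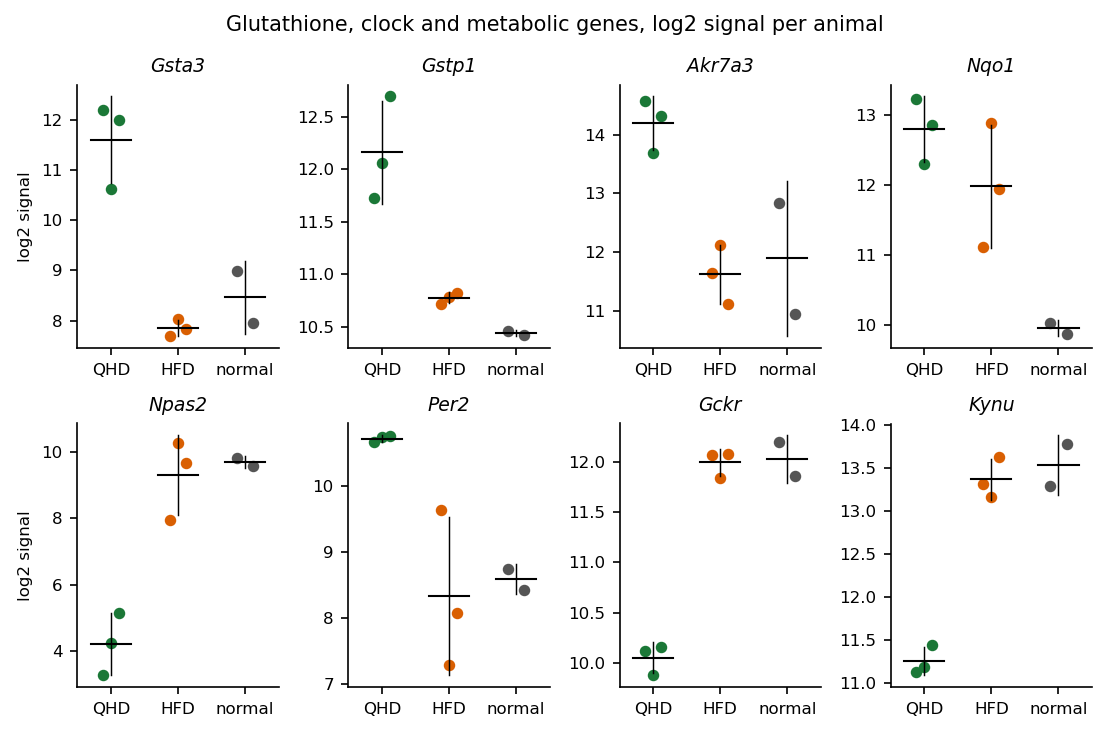
Log2 signal (vertical axis) of 8 glutathione, redox, clock and metabolic genes in QHD, HFD and normal diet livers. Points are animals, horizontal bars group means and vertical lines 1 SD. For Gsta3, Gstp1, Akr7a3 and Per2 all QHD points lie above all others, and for Npas2, Gckr and Kynu below all others.

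Some genes of amino acid breakdown and of growth hormone signalling were lower. Of 46 genes of amino acid breakdown and the urea cycle 5 fell and 0 rose, with a median of -0.27, where 2.7% of all genes tested fell. Hal, which starts histidine breakdown, had 10.50, 10.73 and 10.83 in QHD livers, 11.59, 10.92 and 11.96 in HFD livers and 12.39 and 12.40 in normal livers (-1.71 ± 0.25, adjusted p 0.00543). All QHD arrays were under both normal arrays, with the HFD arrays in between. The glyoxylate enzyme Agxt (-1.65 ± 0.37, adjusted p 0.0302), the transsulfuration enzymes Cth (-0.93 ± 0.20, adjusted p 0.0238) and Cbs (-0.72 ± 0.17, adjusted p 0.0299) and the urea cycle enzyme Otc (-0.45, adjusted p 0.0366) fell as well. Of 16 genes of the growth hormone, prolactin receptor and IGF axis 4 fell and 0 rose, with a median of -0.44. The prolactin receptor Prlr had 6.51, 7.02 and 6.26 after QHD, 8.02, 7.59 and 8.98 on the HFD and 9.34 and 10.81 on the normal diet, with no overlap among the 3 groups (-3.48 ± 0.56, adjusted p 0.00867, 11.1-fold). The growth hormone receptor Ghr had 12.33, 12.23 and 12.06 after QHD, 13.31, 12.52 and 12.93 on the HFD and 13.41 and 13.28 on the normal diet (-1.14 ± 0.18, adjusted p 0.00795). The growth factor Igf1 (-0.45 ± 0.12, adjusted p 0.0412) and its carrier Igfbp3 (-0.75 ± 0.16, adjusted p 0.0224; QHD minus HFD -0.86 (95% interval -1.17 to -0.55, adjusted p 0.0195)) fell too. The amino acid count was 1 without normal diet 2 or 4, 2 without QHD 45 or 46 and 3 without QHD 47, and the growth hormone count was 1 without either normal array. Hepatocyte marker sums, given above, lay lower in QHD than in normal livers beside these falls, and their part was not tested. Hal was called without any 1 of the 11 arrays. The call of Ghr ended without normal diet 2 (adjusted p 0.0602). The call of Prlr ended without normal diet 4 (adjusted p 0.0654). The call of Igfbp3 ended without QHD 46, normal diet 2 or normal diet 4 (adjusted p 0.0658 to 0.103). The call of Agxt ended without QHD 45, QHD 46, normal diet 2 or normal diet 4 (adjusted p 0.0566 to 0.151). The call of Cth ended without QHD 45, QHD 47, normal diet 2 or normal diet 4 (adjusted p 0.0614 to 0.12). The call of Cbs ended without QHD 46, QHD 47, normal diet 2 or normal diet 4 (adjusted p 0.0703 to 0.19). The call of Igf1 ended without QHD 45, QHD 46, QHD 47, GC 37, HFD 87, normal diet 2 or normal diet 4 (adjusted p 0.056 to 0.172). The difference of Prlr was -2.74 without normal diet 4 and -4.21 without normal diet 2. A second probe set of Ghr differed by -0.53.

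The remaining large falls lay outside the lists. Serpinb9b, a protease inhibitor, had 5.43, 5.31 and 6.10 in QHD livers, 7.02, 7.24 and 7.50 in HFD livers and 8.06 and 9.17 in normal livers (-3.005 ± 0.39, adjusted p 0.00302). Rnf125, a ubiquitin ligase, had 11.07, 10.50 and 10.54 after QHD, 11.37, 12.10 and 12.09 on the HFD and 12.87 and 12.64 on the normal diet (-2.05 ± 0.25, adjusted p 0.00268). For both genes the groups stood in the order QHD, HFD and normal from low to high, with no overlap. The vasopressin receptor Avpr1a (-1.97 ± 0.40, adjusted p 0.0223; QHD minus HFD -1.65 (95% interval -2.44 to -0.86, adjusted p 0.0813)), the activin chain gene Inhba (-2.44 ± 0.53, adjusted p 0.0272), the thyroxine carrier Serpina7 (-2.38 ± 0.52, adjusted p 0.0278), the phosphate transporter Slc34a2 (-2.09 ± 0.56, adjusted p 0.0497), the kinase Nim1k (-3.21 ± 0.67, adjusted p 0.0246), Poteml2 (-3.03 ± 0.55, adjusted p 0.0148) and Spin2b (-1.95 ± 0.44, adjusted p 0.0277) were the others of the 15 largest falls. Pcp4l1 completed the 15 largest rises (2.89 ± 0.70, adjusted p 0.0382). Serpinb9b and Rnf125 were called without any 1 of the 11 arrays. The call of Poteml2 ended without normal diet 2 or normal diet 4 (adjusted p 0.0691 to 0.0728). The call of Nim1k ended without QHD 45, normal diet 2 or normal diet 4 (adjusted p 0.0632 to 0.114). The calls of Avpr1a, Inhba and Spin2b ended without QHD 45, QHD 46, normal diet 2 or normal diet 4 (adjusted p 0.0502 to 0.134). The call of Serpina7 ended without QHD 46, QHD 47, normal diet 2 or normal diet 4 (adjusted p 0.0538 to 0.118). The call of Pcp4l1 ended without QHD 45, QHD 47, GC 55, HFD 24 or normal diet 2 (adjusted p 0.0531 to 0.224). The call of Slc34a2 ended without QHD 45, QHD 46, QHD 47, GC 35, GC 37, GC 55, HFD 87, normal diet 2 or normal diet 4 (adjusted p 0.0546 to 0.247). Pcp4l1 had 6.21 and 8.29 in normal livers and differed by 1.854 without normal diet 2 and 3.93 without normal diet 4. With 32 added to the linear signals Serpinb9b differed by -2.39.

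Calls in the other lists stand beside the shares over all genes tested, of which 4.77% rose and 2.7% fell. Heme synthesis and breakdown had 2 rises among 12 genes, the erythroid enzyme Alas2 (1.14 ± 0.29, adjusted p 0.0392) and the biliverdin reductase Blvra (0.75 ± 0.18, adjusted p 0.0362). Acute phase and plasma proteins had 1 rise, Lcn2, and 2 falls among 22 genes, the pentraxins Crp (-0.76 ± 0.20, adjusted p 0.042) and Apcs (-0.77 ± 0.16, adjusted p 0.0206). The lysosomal list had 2 rises among 30, the cathepsin Ctsz (1.39 ± 0.27, adjusted p 0.0198) and the pump subunit Atp6v0e1 (0.43 ± 0.10, adjusted p 0.0332). The ribosomal list had 2 rises among 25, Rpl3 (0.69 ± 0.11, adjusted p 0.00795) and Rps24 (0.38 ± 0.09, adjusted p 0.0332), with 24 of 25 differences positive and a median of 0.22. Second probe sets of Rpl3 and Rps24 differed by 0.44 and 0.42 and were not called (adjusted p 0.379 and 0.423 over probe sets). Immediate early genes had 1 rise, Egr2 (2.31 ± 0.50, adjusted p 0.0247), and 1 fall, Klf2 (-1.29 ± 0.24, adjusted p 0.0148), whose second probe set differed by 0.05. Proteasome subunits had 1 rise, Pomp (0.33 ± 0.09, adjusted p 0.0476), and 1 fall, Psmd11 (-0.44 ± 0.11, adjusted p 0.0418), among 31. The heat shock list had 1 fall among 20, Hsph1 (-0.70 ± 0.19, adjusted p 0.0476), and conjugating drug enzymes 1 among 30, the esterase Aadac (-0.76 ± 0.18, adjusted p 0.0308). By limma 0 genes were called among 25 cytochrome P450 genes, 21 nuclear receptors, 27 collagens and matrix genes, 29 unfolded protein response genes, 54 oxidative phosphorylation subunits, 11 stellate cell markers and 13 endothelial markers. Anxa4, a cholangiocyte marker (0.80 ± 0.19, adjusted p 0.0304), and Fabp2, a gut marker (1.27 ± 0.31, adjusted p 0.0364), were the only calls among 5 and 3 tested genes of their lists. Closest to the threshold in those without calls were the P450 Cyp2d3 (adjusted p 0.0526), the chaperone Sdf2l1 (0.0527), the pericyte marker Rgs5 (0.0573), the nuclear receptor Nr5a2 (0.0678), the leukocyte antigen Ptprc (0.0696), the protease Mmp14 (0.0937), the endothelial receptor Kdr (0.108) and the respiratory chain subunit Ndufa5 (0.121). The call of Rpl3 ended without normal diet 4 (adjusted p 0.0661). The calls of Ctsz and Klf2 ended without normal diet 2 or normal diet 4 (adjusted p 0.0515 to 0.114). The call of Apcs ended without QHD 47, normal diet 2 or normal diet 4 (adjusted p 0.0656 to 0.102). The calls of Rps24, Atp6v0e1 and Aadac ended without QHD 46, QHD 47, normal diet 2 or normal diet 4 (adjusted p 0.0731 to 0.18). The calls of Egr2 and Anxa4 ended without QHD 45, QHD 46, QHD 47, normal diet 2 or normal diet 4 (adjusted p 0.0538 to 0.16). The calls of Blvra and Hsph1 ended without QHD 45, QHD 46, QHD 47, GC 37, normal diet 2 or normal diet 4 (adjusted p 0.0553 to 0.23). The call of Alas2 ended without QHD 45, QHD 46, QHD 47, GC 37, GC 55, normal diet 2 or normal diet 4 (adjusted p 0.0503 to 0.217). The call of Fabp2 ended without QHD 45, QHD 46, QHD 47, GC 37, GC 55, HFD 87 or normal diet 2 (adjusted p 0.0503 to 0.236). The call of Crp ended without QHD 45, QHD 46, QHD 47, GC 35, GC 37, HFD 87, normal diet 2 or normal diet 4 (adjusted p 0.0543 to 0.27). The call of Psmd11 ended without QHD 45, QHD 46, QHD 47, GC 37, GC 55, HFD 87, normal diet 2 or normal diet 4 (adjusted p 0.0545 to 0.224). The call of Pomp ended without QHD 45, QHD 46, QHD 47, GC 35, GC 37, GC 55, HFD 87, normal diet 2 or normal diet 4 (adjusted p 0.0569 to 0.234).

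**Figure D5:**
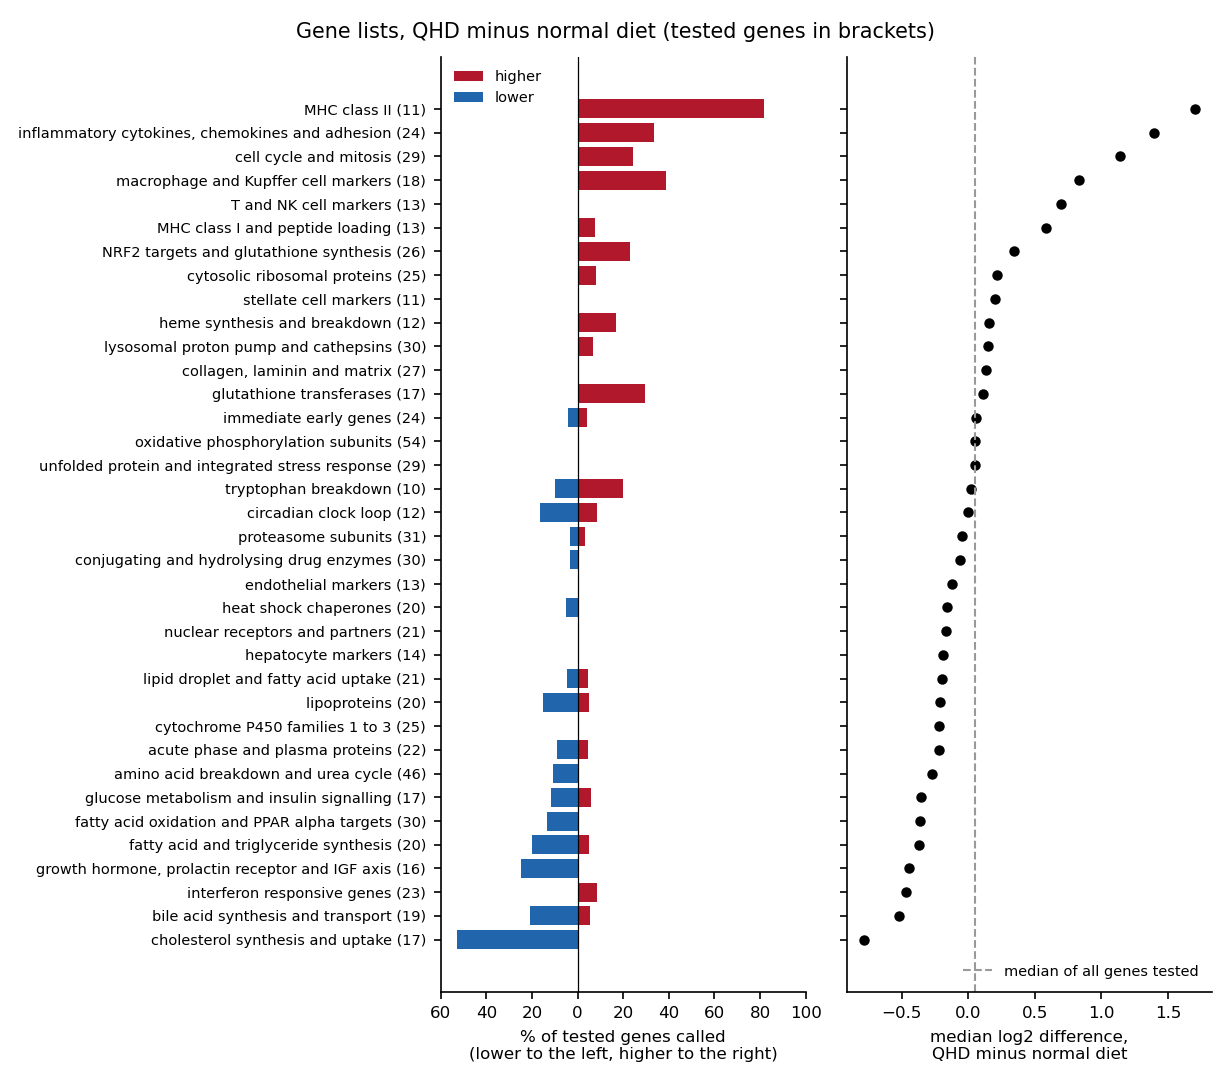
Gene lists with at least 10 tested genes, whose number stands in brackets. The left panel shows the percentage of tested genes that fell (blue) or rose (red) in QHD against normal diet liver, and the right panel the median log2 difference of each list, with the median of all genes as a dashed line. MHC class II stands highest with a median of 1.71 and cholesterol synthesis lowest with -0.78.

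Among 15 tested genes of a panel often measured in fatty liver, 1 was called, Ccl2, where 7.46% of all genes tested were called. Fgf21, a hepatic hormone of fasting and fat load, had 7.84, 6.85 and 6.91 in QHD livers, 8.54, 8.92 and 9.35 in HFD livers and 7.10 and 9.82 in normal livers. The 2 normal arrays lay far apart and the difference was not called (-1.26 ± 0.66, adjusted p 0.269). Acaca, the acetyl-CoA carboxylase (0.39, adjusted p 0.442), Pparg (-0.16, 0.822) and Cyp2e1, a P450 that yields reactive oxygen (-0.16, 0.518), did not pass either. A p that misses the threshold with 3 and 2 arrays does not show that these levels are normal.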

How the data were processed

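Total RNA from rat liver was measured on Affymetrix expression arrays, 1 per animal, and the authors deposited log2 signals. Per the submitters' processing notes these came from MAS5 in Affymetrix Expression Console, and no version is stated there. Linear signals had a trimmed mean of 500 on every array (2% trimmed at each end). The authors' deposited table also holds p-values per probe set from an unnamed test. An unequal-variance test gave the same values to within 1.03e-05. Each deposited fold is 2 raised to the absolute difference between group means, as computed from the signals. A direction deposited by the authors beside them, per the file headers, is text. The signals of another deposited table were identical.

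The annotation gave 1 symbol to 20832 of 31099 probe sets (14218 genes), several to 436 and none to 9831. The brightest probe set stood for a gene, and genes with a mean log2 signal above 6.66 were tested. Group means were fitted to 11 arrays with limma 3.58.1 in R 4.3.3 (eBayes with trend and robust, 7 residual degrees of freedom), with Benjamini-Hochberg adjustment over 9459 genes and a call under 0.05. GC and HFD arrays add to the shared spread. The labels name no batch and no separate cages, so p-values measure only the spread between these arrays, whose number limits the precision. Members and gene lists were chosen with earlier results of these data known, and lists got no test. Genes were named by rule: the 15 largest called rises and falls without overlap, leaving out placeholder symbols, up to 4 called genes of each list by p, or the 1 with the smallest p, and a fatty liver panel. Other called list members were named after their values were seen. On simulated signals (5 draws, 200 changed genes of 9459, QHD minus normal diet) the fit recovered 66% to 72% of genes changed by 1 log2 unit and 89% to 98% of those changed by 2. There 3.53% to 5.75% of calls were false. The draws used independent normal noise for each gene, with equal arrays and no link between genes. This share therefore need not hold for the real calls. Figures used matplotlib 3.10.9. Alternatives covered the arrays used, array weights, normalization, pseudocount, filters, probe sets, moderation and each array left out.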

Additional observations from a re-analysis of the deposited data

Results flagged for a closer look

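On the array labelled normal diet 3, which the comparison left out, the median log2 signal over 11 fat cell markers was 14.28, against 8.58 to 9.68 in QHD livers and 8.48 to 8.50 on the other normal diet arrays. It stood out as a signal in data outside the comparison, above the level of the other control arrays.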

How the results depend on the processing

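The 706 genes called became 4 with all 12 arrays and 162 without moderation of variances. Leaving out 1 array gave 134 to 1050. The other alternatives gave 528 to 972, of which 916 came from the 3 QHD and 2 normal diet arrays alone. Without moderation 29 of the 104 called genes named by rule stayed called and 75 did not. Only 23 of these 104 were called in every alternative apart from all 12 arrays and arrays left out. Gsta3, Npas2, Prc1 and Serpinb9b were called without any 1 array but were not called, or not tested, in some of those alternatives. Of 104 called genes that the text names by rule, 23 were called without any 1 array, and the most calls ended without normal diet 2 (75) and normal diet 4 (69). With all 12 arrays 23 called and 8 uncalled named genes changed sign, at differences of 2.198 for Aadac, 1.98 for Abcb11, 0.13 for Abcb4, -0.77 for Acaca, 0.53 for Agxt, 1.29 for Amacr, 2.003 for Apcs, 2.31 for Apoa5, 2.06 for Apom, 0.74 for Cbs, 0.82 for Cpt1a, 2.33 for Crp, 2.03 for Cth, 2.58 for Cyp2d3, 2.43 for Cyp2e1, 1.98 for Cyp4a3, 0.057 for Ebp, -0.30 for Fabp4, 0.73 for Fads2, 2.78 for Fgb, 0.034 for Hadh, 1.03 for Hal, 0.52 for Hsd17b13, 0.58 for Insig2, 0.75 for Kynu, 2.90 for Lipc, 0.95 for Nr5a2, 0.18 for Pck1, -0.27 for Rgs5, 1.33 for Serpina7 and 2.99 for Slc10a1. The array added there holds fat cell mRNA. Under quantile normalization Cpt1a turned to 0.0099 and Cyp2e1 to 0.027. With 1 array left out, 6 uncalled genes took both signs: Cpt1a (-0.51 to 0.44), Cd36 (-0.63 to 0.0003), Fasn (-0.24 to 0.0079), Fgf21 (-2.62 to 0.10), Pparg (-0.52 to 0.19) and S100a9 (-0.35 to 0.56). Of 42 list medians 26 moved beyond their spread with all 12 arrays, 4 under quantile normalization and 3 with a mean log2 signal above 8, and 0 under the other alternatives on 11 arrays apart from arrays left out. No paired analysis was possible because the groups share no replicate numbers. Array signal gives no depth, and the folds of dim genes depend on the pseudocount.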

Other observations

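Some genes outside the lists were picked after their values were seen. Pemt, which makes phosphatidylcholine in hepatocytes, had 11.56, 11.44 and 11.51 in QHD livers, 12.03, 11.81 and 12.25 in HFD livers and 12.80 and 12.73 in normal diet livers, with all QHD arrays lowest (-1.26 ± 0.12, adjusted p 0.000771). Crot, a peroxisomal carnitine octanoyltransferase, had 11.45, 11.61 and 12.22 after QHD, 13.43, 12.54 and 13.50 on the HFD and 13.31 and 13.71 on the normal diet (-1.75 ± 0.31, adjusted p 0.0142). Hjv, hemojuvelin, a co-receptor that regulates hepcidin, had 10.93, 10.66 and 10.66 after QHD, 11.60, 11.47 and 11.85 on the HFD and 12.09 and 12.02 on the normal diet (-1.30 ± 0.15, adjusted p 0.00206; QHD minus HFD adjusted p 0.0152). The 3 groups of Hjv did not overlap, and those of Id4, an inhibitor of basic helix-loop-helix factors, were ordered in the same way at 11.17, 10.96 and 10.86 after QHD, 11.53, 11.77 and 12.01 on the HFD and 12.29 and 12.38 on the normal diet (-1.34 ± 0.15, adjusted p 0.00162). Onecut1, a hepatocyte transcription factor, was higher with 10.82, 11.65 and 10.16 after QHD, against 8.34, 9.43 and 9.46 on the HFD and 8.61 and 8.90 on the normal diet (2.12 ± 0.49, adjusted p 0.0341). Scd2, a desaturase, rose at 9.81, 10.65 and 11.59 after QHD, against 9.09, 10.67 and 9.63 on the HFD and 8.14 and 8.16 on the normal diet (2.54 ± 0.52, adjusted p 0.0238).

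Some antiviral members of the interferon list, also picked after their values were seen, had negative differences that were not called. Oas1a had 9.62, 8.44 and 8.44 in QHD livers, 10.22, 9.88 and 8.18 in HFD livers and 11.46 and 10.91 in normal livers (-2.35 ± 0.70, adjusted p 0.0709). Mx2 had 9.24, 8.13 and 7.01 after QHD, 10.13, 10.05 and 7.92 on the HFD and 9.75 and 10.95 on the normal diet (-2.22 ± 0.85, adjusted p 0.137), and Irf7 and Isg15 differed by -0.92 and -1.24 (adjusted p 0.367 and 0.464). For Mx2, Irf7 and Isg15 QHD 47 was the lowest QHD array.

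Some genes that differed between QHD and HFD livers were not called against normal liver. Gclm, the modifier chain of glutathione synthesis, had 12.77, 12.64 and 12.68 after QHD, 11.55, 11.41 and 11.54 on the HFD and 12.48 and 12.26 on the normal diet (0.33 ± 0.11, adjusted p 0.0979; QHD minus HFD 1.20, adjusted p 0.000516). Ugt2b1, a glucuronosyltransferase, had 14.30, 13.93 and 14.21 after QHD, 12.58, 12.74 and 12.98 on the HFD and 14.02 and 13.51 on the normal diet (0.38 ± 0.18, adjusted p 0.205; QHD minus HFD 1.38, adjusted p 0.00347). Gsr, glutathione reductase, differed by 0.77 ± 0.25, adjusted p 0.0814, and by 1.24 between QHD and HFD livers with adjusted p 0.035. These values come from comparisons that share the QHD arrays.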
